A study of Mus musculus with 17 samples.

Results

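Oxidative phosphorylation is carried out in the mitochondrial inner membrane by 5 protein complexes. Complex I (NADH dehydrogenase) and complex II (succinate dehydrogenase) pass electrons to ubiquinone, complex III (the cytochrome bc1 complex) and complex IV (cytochrome c oxidase) carry them on to oxygen, and complex V (ATP synthase) uses the proton gradient that results to make ATP. Most subunits are encoded in the nucleus, and a small set is encoded by mitochondrial DNA. Germinal centre B cells, which divide fast while they mutate and select their antibody genes, have been described as relying on this pathway.

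The genes described here are the rows of the count table whose symbol starts with Ndufa, Ndufb, Ndufc, Ndufs, Ndufv, Uqcr, Cox4i, Cox5, Cox6, Cox7, Cox8 or Atp5, together with Sdha, Sdhb, Sdhc, Sdhd and Cyc1. Symbols with -ps were left out. The rule gave 99 of 55536 rows: 47 of complex I, 4 of complex II, 9 of complex III, 21 of complex IV and 18 of complex V. Among the complex I rows, 8 are Ndufaf genes, which encode assembly factors and not subunits. Ndufa4 is counted with complex IV, where its protein resides. GENCODE annotates 4 of the rows as processed pseudogenes (Ndufa11b, Ndufb4c, Ndufs6b and Cox6c2), and the row of Cox7a2l encodes a factor that joins complexes III and IV into supercomplexes.

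RNA sequencing covered 17 libraries, each of B cells that were flow-sorted out of mouse spleen. Wild-type (WT) mice gave 3 libraries each of naive, activated and germinal centre (GC) cells. Mice with a p52 knock-in (p52ki; p52 is an NF-κB subunit made from the Nfkb2 gene) gave 3 libraries each of naive and activated cells and 2 of GC cells. The sources used here do not give the altered residue, the age and strain of the mice, the sorting gates or the way cells were activated. Whether replicates are different animals is not stated in the labels, so p-values measure only the spread between these libraries, which may be technical. Library numbers are lower (1 to 12) for every WT library than for every p52ki library (19 to 30), so genotype and anything that follows this order cannot be told apart.

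Libraries held 4067281 to 10036347 counts. The GC libraries WT 3, p52ki 2 and p52ki 5 stood apart, with 11232, 11390 and 13044 detected genes against 16745 to 19672 in the other 14. The 5 B cell markers summed to 8850 to 19792 library-scaled counts (CPM, each gene's count relative to the library total) in every library. The 5 GC markers summed to 1242 to 1769 CPM in WT GC cells, 584 and 931 CPM in p52ki GC cells, and at most 119 CPM elsewhere. The 4 naive follicular markers summed to 411 to 632 CPM in WT GC cells and to 1124 and 1324 CPM in p52ki GC cells. Plasma cell markers (4) summed to 203 to 322 CPM in naive cells, 1563 to 8094 CPM in activated cells, 2644 to 5881 CPM in WT GC cells and 2692 and 2641 CPM in p52ki GC cells. Jchain made up most of the activated and GC sums (mean 4347 CPM in WT activated, 3952 CPM in WT GC). From naive to GC cells, mean Xbp1 rose (247 to 528 CPM in WT, 196 to 284 CPM in p52ki). Mean Sdc1 fell (13.3 to 3.59 CPM in WT, 14.8 to 1.45 CPM in p52ki). Prdm1 rose in WT (1.36 to 9.98 CPM) and was at 0 in both p52ki GC libraries. Erythroid markers (8) summed to 326 and 372 CPM in p52ki GC cells, 48.9 to 234 CPM in WT GC cells and 15.6 to 304 CPM elsewhere. The 12 T cell markers summed to 36 to 133 CPM, the 9 NK cell markers to 0.611 to 57.7 CPM and the 12 macrophage and monocyte markers to 110 to 261 CPM over all libraries. By group means, Lck alone gave 40 of 49.2 CPM of the T cell sum in WT naive and 91.8 of 102 CPM in WT GC cells. Spi1 alone gave 121 of 168 CPM and 162 of 205 CPM of the macrophage and monocyte sum in the same groups. Many markers of these lists were at 0 counts in the 3 libraries with few detected genes. They were 7 T cell, 6 NK cell and 6 macrophage markers in both p52ki GC libraries, and 9, 8 and 6 in WT GC replicate 3. Others were high in 1 of them, with Cd3e at 26.6 CPM in p52ki GC replicate 2 (at most 4.81 CPM elsewhere) and Cd68 at 37.9 CPM in p52ki GC replicate 5 (at most 23.8 CPM elsewhere). The part of other cell types in the results below was not tested. In bulk samples, fewer cells of a type and less RNA per cell cannot be told apart.

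Many respiratory gene promoters are known to bind the nuclear respiratory factor NRF1 or ETS-family factors such as GABP. ETS1, which the series names as a partner of p52, belongs to the same family and binds a similar core. RefSeq promoters (GRCm38.p6, 250 bases before to 50 after the start) were found for 74 of the 94 protein-coding genes of the set, with 79 promoters in all. The ETS core CCGGAAG, searched on both strands, was present in 18 of the 79 (22.8%), against 8.86% of all 32851 promoters. The NRF1 site, GCGC and TGCGC with any 1 base between them, on both strands, was present in 20 (25.3%), against 4.6% of all promoters. At least 1 of these motifs was found in 34 of the 79 promoters (43%), against 12.6% of all, and 4 promoters held both. The YY1 site AAGATGGCG was present in 8 (10.1%), against 1.4%, and the GC box GGGCGG in 34 (43%), against 35.7%. These shares describe letters in a window and carry no test, and a match is not evidence of binding in these cells. By complex, the ETS core was in 6 of 41 promoters of complex I, 2 of 3 of complex II, 2 of 5 of complex III, 3 of 14 of complex IV and 5 of 16 of complex V.

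The 100 bases next to the transcription start are shown for 6 genes that were higher in GC than in naive cells of p52ki mice, 3 with the ETS core and 3 with the NRF1 site. All lie on the minus strand of GRCm38.p6, are written 5′ to 3′ on the gene's strand and end at the base before the gene's first annotated exon. Capitals mark the motif match, on either strand. The promoters of Cox6a1 and Atp5h also hold an ETS core outside the stretch shown, first base at -16 and -38 from the RefSeq start.
Uqcr11 (complex III, chr10:80406831-80406930, ETS core): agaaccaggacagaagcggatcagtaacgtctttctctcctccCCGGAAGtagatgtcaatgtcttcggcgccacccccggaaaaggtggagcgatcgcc
Uqcrh (complex III, chr4:116075072-116075171, ETS core): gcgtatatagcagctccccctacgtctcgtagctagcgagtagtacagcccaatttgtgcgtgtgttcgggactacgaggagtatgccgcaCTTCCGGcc
Atp5e (complex V, chr2:174464106-174464205, ETS core): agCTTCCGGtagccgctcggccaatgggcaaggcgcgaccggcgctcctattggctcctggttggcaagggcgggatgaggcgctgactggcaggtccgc
Ndufs5 (complex I, chr4:123718203-123718302, NRF1 site): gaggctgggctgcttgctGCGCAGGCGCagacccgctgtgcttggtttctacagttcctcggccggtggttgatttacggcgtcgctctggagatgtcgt
Cox6a1 (complex IV, chr5:115348982-115349081, NRF1 site): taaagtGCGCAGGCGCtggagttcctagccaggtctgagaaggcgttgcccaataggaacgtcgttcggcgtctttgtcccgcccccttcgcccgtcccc
Atp5h (complex V, chr11:115419963-115420062, NRF1 site): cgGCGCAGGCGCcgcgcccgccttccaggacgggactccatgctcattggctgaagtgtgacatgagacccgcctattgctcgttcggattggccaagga

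Most of the set was expressed in every stage. The filter on low counts kept 90 of the 99 rows. The 9 that were not tested had at most 53 counts over all 17 libraries: the copies Ndufa11b, Ndufs6b and Cox6c2, the isoforms Cox4i2, Cox7b2, Cox8b and Cox8c, the complex IV paralogue Ndufa4l2, and a second Atp5o row at 0 counts whose coordinates overlap those of the first. Relative to transcript length, the highest mean levels were those of Cox6b1 (640 CPM per kb), Ndufa4 (587), Atp5j (544), Cox4i1 (531) and Atp5g3 (529), all of complexes IV and V. The highest in complex III was Uqcrb (373 CPM per kb), in complex I Ndufa3 (316) and in complex II Sdhb (218). Isoform pairs were split in the same way, with the ubiquitous form high and the muscle or testis form near 0. Cox6a1 had a mean of 270 CPM against 0.467 CPM for Cox6a2, Cox7a2 had 162 CPM against 0.797 CPM for Cox7a1, and Cox6b1 had 311 CPM against 0.524 CPM for Cox6b2. The 3 genes that encode an identical c-ring subunit of ATP synthase were all expressed, Atp5g3 at 529, Atp5g2 at 201 and Atp5g1 at 66.9 CPM per kb.

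Summed over the 99 rows, the set took 9057 to 10641 CPM in WT naive cells, 8723 to 15637 CPM in WT activated cells and 14188, 23054 and 19135 CPM in WT GC cells (replicates 1, 3 and 4). The sums in p52ki cells were 8680 to 12314 CPM in naive, 9914 to 13853 CPM in activated and 19842 and 21471 CPM in GC cells. Within each genotype all naive libraries lay below all GC libraries, and WT activated replicate 1, at 15637 CPM, lay above WT GC replicate 1. Complex IV rose the most in relative terms, from 1787 ± 218 CPM (SD, n = 3) in WT naive to 4235 ± 1552 CPM (SD, n = 3) in WT GC cells. Complex V went from 3384 ± 230 CPM to 6673 ± 922 CPM and complex I from 2904 ± 284 CPM to 5169 ± 1612 CPM between the same groups. In p52ki GC cells, complex IV summed to 5268 ± 90.9 CPM (SD, n = 2), complex V to 6711 ± 627 CPM and complex I to 5875 ± 210 CPM.

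**Figure D1:**
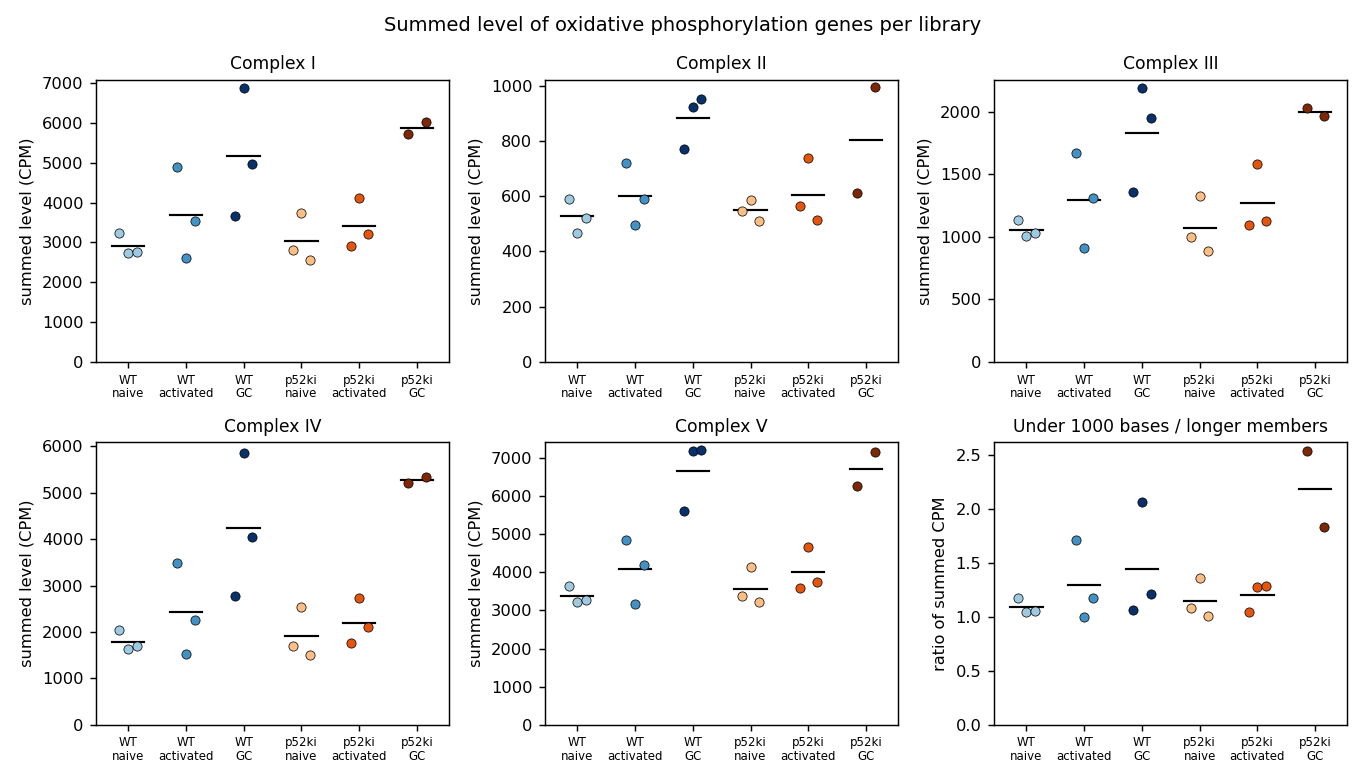
Summed CPM of the genes of each complex in every library (points; bars are group means), and in the last panel the summed CPM of genes with transcripts under 1000 bases divided by that of longer ones. Within each genotype, all GC libraries lie above all naive libraries in the sums of all 5 complexes, and the ratio reaches 2.07, 2.54 and 1.83 in WT GC 3, p52ki GC 2 and p52ki GC 5.

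Between naive and GC cells of WT mice, 43 of the 90 tested genes rose and none fell, by the quasi-likelihood test of edgeR, with p adjusted over all 15352 genes tested by Benjamini-Hochberg (called at an adjusted p under 0.05). Of all genes tested, 15.9% were called in this comparison, 8.45% as higher and 7.47% as lower. The median log2 change of the set was 0.94, against -0.16 over all genes, and 85 of the 90 were positive. The genes called higher numbered 17 of 45 in complex I, 1 of 4 in complex II, 2 of 9 in complex III, 10 of 15 in complex IV and 13 of 17 in complex V. By role, they included 9 of the 11 ubiquitous subunits of complex IV and all 8 subunits of the stalk and membrane part of complex V, but 2 of the 7 core subunits of complex I and none of its 8 assembly factors.

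In complex II, Sdhb, the iron-sulfur subunit (chr4:140961203-140979193), measured 171, 136 and 157 CPM in WT naive cells and 323, 475 and 464 CPM in WT GC cells. The groups did not overlap, and the log2 change was 1.44 (SE 0.273, adjusted p = 0.00195, edgeR). Sdhc and Sdhd, the membrane anchors, had log2 changes of 0.20 and 0.61 and did not pass the test. Sdha, the flavoprotein that oxidises succinate, measured 172, 128 and 145 CPM in WT naive and 187, 137 and 127 CPM in WT GC cells, so its groups overlapped.

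In complex III, 2 of the 5 small subunits were called, and none of the 4 core and redox subunits. Uqcr11 measured 45.5, 40.4 and 38.6 CPM in WT naive cells and 75.8, 219 and 110 CPM in WT GC cells, a log2 change of 1.70 (SE 0.397, adjusted p = 0.00839, edgeR). Its GC values were all above the naive ones, and replicate 3 was the highest. Uqcr10, another small subunit, rose 3.04-fold. The other small subunits, Uqcrb, Uqcrh and Uqcrq, were 1.59-fold, 1.9-fold and 2.29-fold of the naive level and did not pass. The core proteins Uqcrc1 and Uqcrc2, the Rieske iron-sulfur protein Uqcrfs1 and cytochrome c1 (Cyc1), which carries the haem, had log2 changes of 0.66, 0.24, 0.62 and 0.53 and did not pass either.

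In complex IV, Cox4i1, which takes part in the regulation of the enzyme by ATP, measured 285, 241 and 236 CPM in WT naive and 401, 971 and 584 CPM in WT GC cells (log2 change 1.36). Cox6c, a small membrane subunit, measured 157, 120 and 122 CPM in WT naive and 247, 635 and 347 CPM in WT GC cells. In both genes every GC library lay above every naive library, and replicate 3 was the highest. The change of Cox6c was 1.62 (SE 0.335, adjusted p = 0.00376, edgeR). Cox5a and Cox5b, which sit on the matrix side, rose by 1.28 and 1.06. The supercomplex factor Cox7a2l (chr17:83501918-83517330) measured 113, 106 and 101 CPM in WT naive, 128, 96.7 and 113 CPM in WT activated and 190, 224 and 274 CPM in WT GC cells. Its GC level did not overlap either other stage, with a log2 change of 1.11 against naive cells (SE 0.209, adjusted p = 0.00189, edgeR).

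In complex V, the catalytic head and the membrane part both contributed. Atp5a1, the alpha subunit, measured 503, 535 and 513 CPM in WT naive and 1051, 708 and 1130 CPM in WT GC cells, a log2 change of 0.90 (SE 0.187, adjusted p = 0.00379, edgeR). For this gene replicate 3 was the lowest of the GC libraries, whereas it was the highest for Cox6c. Atp5k, subunit e of the membrane part, measured 42.1, 31.6 and 29 CPM in WT naive and 59.2, 249 and 95 CPM in WT GC cells, the largest change among the 10 genes of smallest p (log2 1.97, SE 0.465, adjusted p = 0.00897). The c-ring genes Atp5g3 and Atp5g2 rose 2.3-fold and 1.86-fold, and Atp5g1, at 1.78-fold, did not pass. Atp5b, the beta subunit, measured 769, 747 and 754 CPM in naive and 1335, 767 and 1504 CPM in GC cells and did not pass the test (log2 change 0.67).

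In complex I, Ndufs5, an accessory subunit, measured 37.6, 32.1 and 28 CPM in WT naive and 59.9, 147 and 80.9 CPM in WT GC cells (log2 change 1.56, passed). Ndufa9, which lies at the junction of the 2 arms of the complex, and Ndufb8, of the membrane arm, rose by 0.64 and 1.07. Of the core subunits, Ndufs8, an iron-sulfur protein, rose by 1.15, and Ndufs3 and Ndufs1 had changes of 0.03 and 0.16. The count of 43 was 11 without WT naive replicate 3 and 15 without WT naive replicate 4, where 9.47% and 10.1% of all genes were called. It was 26 without WT GC replicate 3 and 27 without WT GC replicate 4, where 19.1% and 12.3% of all genes were called. The count thus depended on single libraries, as did the all-gene share. The 26 genes called without WT GC replicate 3 were all higher.

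**Figure D2:**
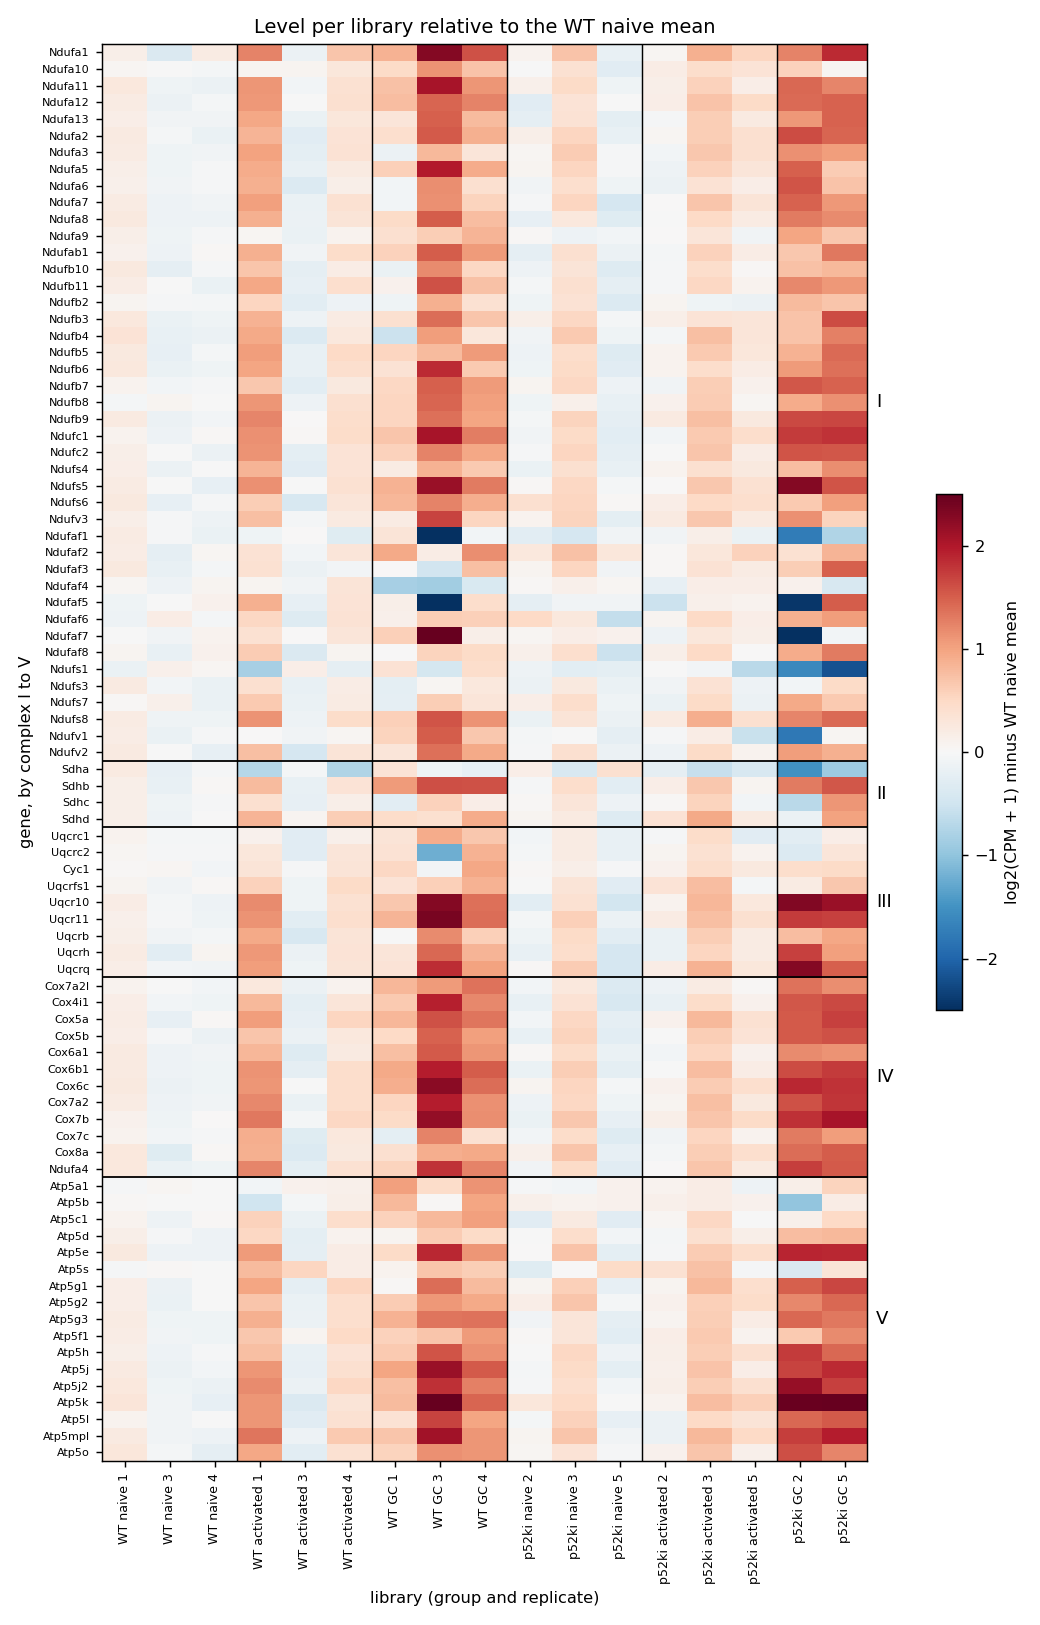
Level of 85 genes whose mean reached 10 CPM (rows, by complex and role) in the 17 libraries (columns), as log2(CPM + 1) minus the mean of the 3 WT naive libraries. Red is higher and blue lower, with colours capped at 2.5. The GC libraries WT 3, p52ki 2 and p52ki 5 are red for most rows and blue for a few, among them Ndufaf1, and Ndufs1 is blue in both p52ki GC libraries.

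The same stage comparison in p52ki mice gave 53 genes higher and 2 lower of 90, where 29.1% of all genes were called, 8.68% as higher and 20.4% as lower. The median log2 change was 1.12, against -0.42 over all genes. The higher genes were 24 of 45 in complex I, 1 of 4 in complex II, 4 of 9 in complex III, 12 of 15 in complex IV and 12 of 17 in complex V, with all 11 ubiquitous complex IV subunits and all 8 stalk and membrane subunits of complex V among them. Of the 43 genes higher in WT, 38 were also higher in p52ki, which is 88.4% of the WT list and 71.7% of the p52ki list. The 5 called in WT and not in p52ki were Atp5a1, Atp5c1, Ndufa10, Ndufa5 and Ndufs6. Whether the naive to GC change differs between the genotypes was not tested.

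Uqcr10 had the largest change of the named genes in p52ki, from 59.5, 93.8 and 52.4 CPM in naive to 362 and 324 CPM in GC cells (log2 2.32, SE 0.435, adjusted p = 0.00184, edgeR). The lowest GC value, 324 CPM, was above the highest naive value, 93.8 CPM. Cox4i1 went from 222, 327 and 192 CPM to 744 and 797 CPM (log2 1.64) and Cox7a2l from 102, 129 and 83.6 CPM to 275 and 241 CPM (2.46-fold, adjusted p = 0.00112). The genes whose promoter stretches are shown above were chosen as higher in this comparison. Their rise was thus fixed by that choice and says nothing about the motifs. Atp5e, the epsilon subunit of the head of complex V, went from 118, 194 and 98.9 CPM to 442 and 440 CPM, and Atp5h, of its stalk, from 179, 256 and 163 CPM to 603 and 489 CPM. Uqcrh, the hinge protein of complex III, went from 97.5, 151 and 82.8 CPM to 367 and 228 CPM, and Cox6a1 from 189, 254 and 164 CPM to 422 and 406 CPM. In each of these genes both GC values were above all 3 naive values, and all passed the test. The 2 genes that fell were Ndufs1 and Sdha, both large subunits that carry redox centres. Ndufs1 went from 106, 96.5 and 97.9 CPM in naive to 37.1 and 24.9 CPM in GC cells, a log2 change of -1.69 (SE 0.352, adjusted p = 0.0034). Sdha went from 165, 111 and 194 CPM to 51.1 and 77.9 CPM, a change of -1.27 (SE 0.315, adjusted p = 0.00873). Without p52ki GC replicate 2, where the lone GC library is assumed to vary like the other groups, Sdha no longer passed (adjusted p = 0.0622). The count of 55 genes fell to 34 when p52ki naive replicate 2 was left out and to 31 when p52ki naive replicate 5 was. In these fits 20.3% and 19.6% of all genes were called.

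From activated to GC cells, 8 genes rose and 1 fell in WT mice, where 13.6% of all genes were called, 5.8% as higher and 7.75% as lower. The share of the set called was 9 of 90, near that background, although 82 of the 90 changes were positive with a median of 0.59 against -0.13 over all genes. Cox7a2l had the smallest p (log2 change 1.03, SE 0.209, adjusted p = 0.00398). The others that rose were Atp5a1 (0.85), Sdhb (1.08), Ndufa9 (0.65), Atp5j (1.12), Cox6c (1.05), Cox4i1 (1.01) and Atp5k (2.84-fold). Ndufaf4, an assembly factor of complex I, fell from 56, 49.8 and 66.3 CPM to 29.4, 28.5 and 40.8 CPM (log2 -0.80, SE 0.252, adjusted p = 0.0467). The count of 9 was 2 without WT activated replicate 3 or 4, where 9.44% and 8.55% of all genes were called. It was 5 without WT GC replicate 4 (10.3% of all genes), 16 without WT GC replicate 1 (11.5%) and 19 without WT activated replicate 1 (10.9%). Cox7a2l passed in each of these fits.

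In p52ki mice the activated to GC comparison gave 36 genes higher and 1 lower, where 25.6% of all genes were called, 6.34% as higher and 19.3% as lower. The median was 0.93 against -0.41 over all genes. Complex IV gave 11 of 15 higher, complex V 11 of 17, complex I 9 of 45 and complex III 4 of 9, all 4 of them small subunits. Ndufs5 went from 32.4, 52.2 and 42.5 CPM to 162 and 97.6 CPM (log2 1.61, SE 0.414, adjusted p = 0.0122), and it did not pass without p52ki GC replicate 2. Ndufs1 was the gene that fell, from 114, 110 and 72.4 CPM to 37.1 and 24.9 CPM (log2 -1.68, SE 0.351, adjusted p = 0.00444). The count of 37 was 14 without p52ki activated replicate 2 and 16 without p52ki activated replicate 5. In these fits 15.9% and 19.1% of all genes were called.

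**Figure D3:**
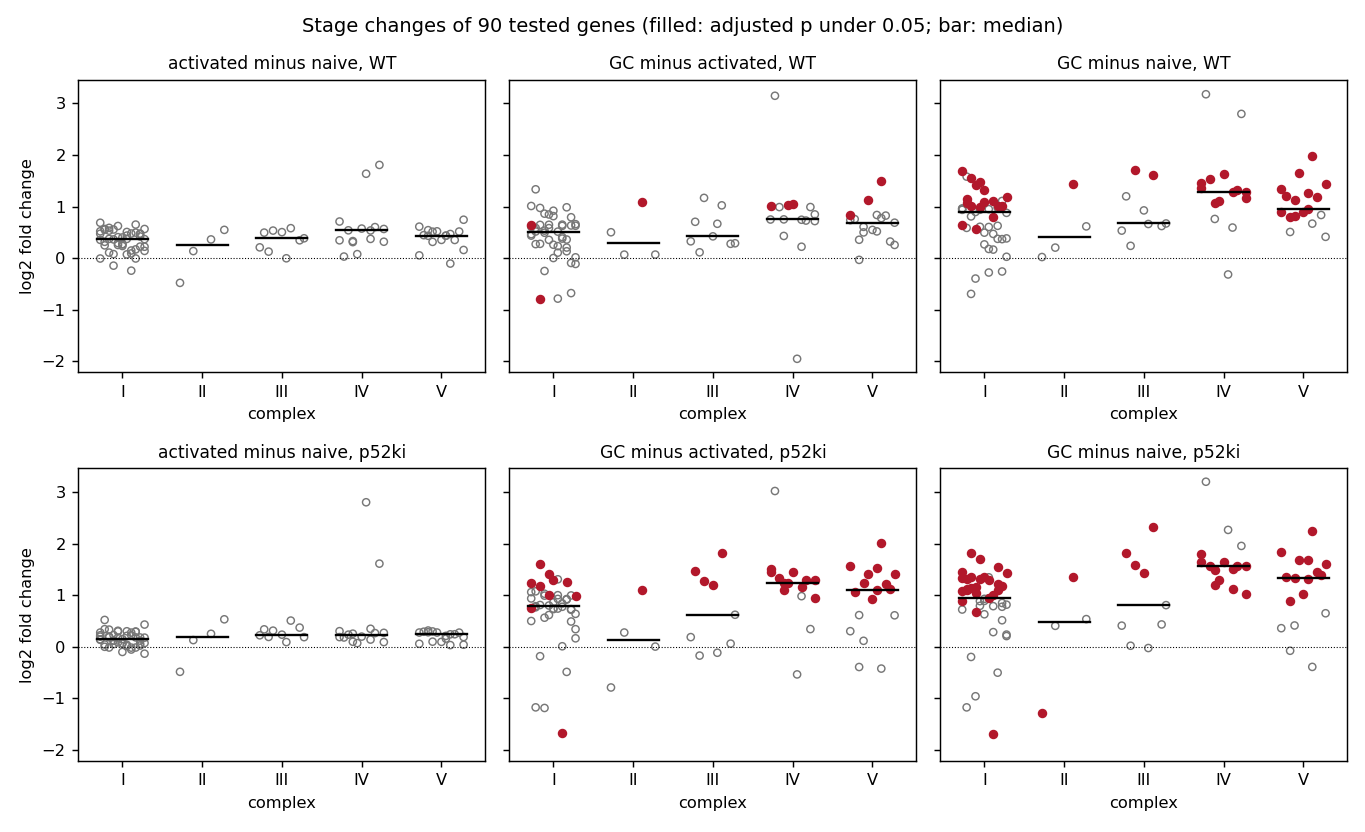
Log2 fold change of each of the 90 tested genes between stages (points), by complex and genotype. Filled points have an adjusted p under 0.05 and bars are medians of the complex. The filled points are nearly all above 0 in the GC panels, and there are none in the activated minus naive panels. Those below 0 are Ndufaf4, Ndufs1 and Sdha.

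Between naive and activated cells no gene of the set was called in either genotype by edgeR, with 0 of 90 at an unadjusted p under 0.05 in WT and 1 of 90 in p52ki. Of all genes, 0.319% were called in WT (0.254% higher, 0.0651% lower) and 0.117% in p52ki (0.0847% higher, 0.0326% lower). DESeq2 also called 0 in both. limma voom called Sdhd (log2 0.57) and Sdha (-0.61) in WT and Cox6a2 in p52ki, a gene with under 2 CPM in every library. Of all genes, limma voom called 6.87% as higher and 3.67% as lower in WT, and 5.3% and 2.7% in p52ki. In both genotypes the share of the set that limma voom called was below that background. The signs were mostly positive, in 83 of 90 genes in WT and 82 of 90 in p52ki, with medians of 0.38 and 0.19. The WT activated libraries were spread widely: Cox4i1 measured 443, 214 and 311 CPM, and Atp5j 480, 195 and 294 CPM, with replicate 1 the highest and replicate 3 below the naive range.

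The p52ki and WT genotypes were compared at each stage. In naive cells no gene of the set was called by edgeR, DESeq2 or limma voom, none had an unadjusted p under 0.05, and 0% of all genes were called by edgeR. The median log2 difference (p52ki minus WT) was 0.08, and -0.12 without p52ki naive replicate 3. In activated cells no gene was called by any of the same tools, with 0 at an unadjusted p under 0.05 and 0.013% of all genes called by edgeR (0.00651% in each direction). The median was -0.10, and 0.20 without WT activated replicate 1. The SE of the difference was 0.275 for Atp5b and 0.308 for Ndufb8 in activated cells, so differences of that size were not detectable here.

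In GC cells, 3 of 90 genes were lower in p52ki and none was higher, where 16% of all genes were called, 12.2% as lower and 3.75% as higher. In both directions the share of the set called was below that background. The median of the set was 0.27 and that of all genes -0.32. The 3 genes were Ndufs1, Sdha and Ndufv1. They encode the iron-sulfur protein at the tip of complex I, the flavoprotein of complex II and the flavoprotein of complex I that accepts electrons from NADH.

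Ndufs1 (chr1:63143596-63176833) measured 148, 84.9 and 157 CPM in WT GC cells and 37.1 and 24.9 CPM in p52ki GC cells. The p52ki values were below all other 15 libraries, the lowest of which was 64.9 CPM in WT activated replicate 1. The log2 difference was -2.07 (SE 0.358, adjusted p = 0.00195, edgeR), and 10 of 12 alternative fits also called it. Its activated to GC change differed between the genotypes by -2.08 (SE 0.454, adjusted p = 0.0163), the only call among 90 genes for that difference, where 5.95% of all genes were called, 0.977% as higher and 4.97% as lower. 

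Sdha (chr13:74322254-74350280) measured 187, 137 and 127 CPM in WT GC cells and 51.1 and 77.9 CPM in p52ki GC cells, without overlap. The log2 difference was -1.22 (SE 0.314, adjusted p = 0.0188, edgeR). It had an adjusted p of 0.0575 without WT GC replicate 1 and 0.108 without p52ki GC replicate 2. The other complex II subunits did not follow it: Sdhb measured 381 and 454 CPM in p52ki GC cells, within the WT GC range of 323 to 475 CPM, and its difference was -0.01. Sdhc measured 52.8 and 183 CPM, on both sides of the WT GC values of 70.8, 127 and 95 CPM.

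Ndufv1 (chr19:4007384-4012806) measured 126, 245 and 136 CPM in WT GC cells and 24 and 88.7 CPM in p52ki GC cells. The groups did not overlap, and the higher p52ki value of 88.7 CPM lay within the range of the naive and activated libraries, 57.3 to 97.4 CPM. The difference was -1.58 (SE 0.441, adjusted p = 0.0264, edgeR), with an adjusted p of 0.0639 without WT GC replicate 3 and 0.114 without p52ki GC replicate 2. Its partner Ndufv2, the other flavoprotein-module subunit, had a difference of 0.03. Atp5b measured 1335, 767 and 1504 CPM in WT GC and 384 and 860 CPM in p52ki GC cells, a difference of -0.95 that did not pass (adjusted p = 0.053). Ndufb4c, a processed pseudogene at 1.63 CPM on average that may share reads with Ndufb4, had a difference of 1.70 (adjusted p = 0.0703).

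**Figure D4:**
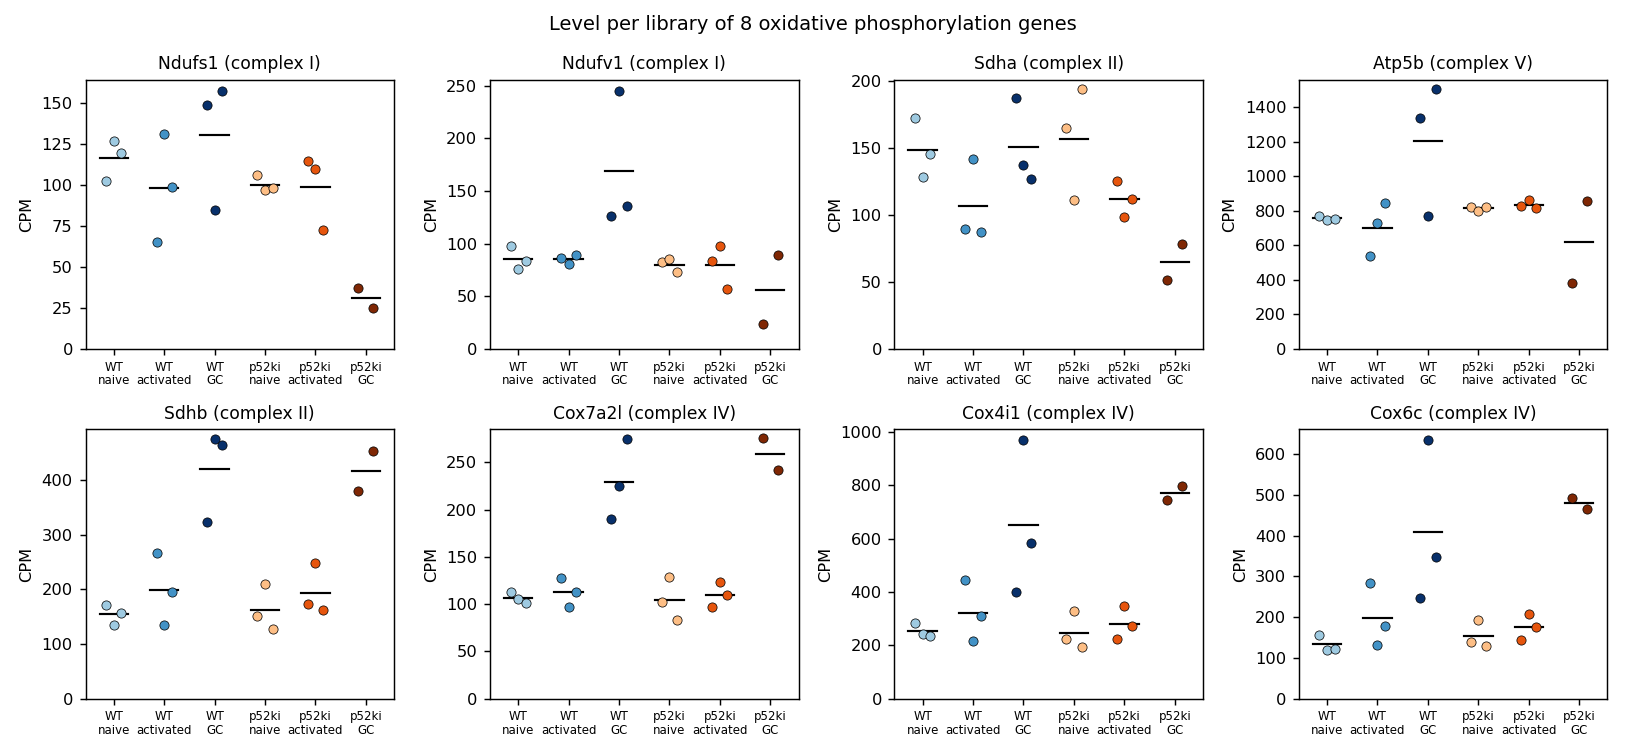
CPM per library (points) and group means (bars) of 8 genes. Ndufs1 and Sdha are lowest in the p52ki GC libraries, Ndufv1 is lowest in p52ki GC replicate 2, and Sdhb, Cox7a2l, Cox4i1 and Cox6c have GC values above all naive values in both genotypes.

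WT GC replicate 3 weighed on the genotype comparison. Without it, 13 genes of the set were higher and 5 lower in p52ki GC cells, with a median of 0.67, where 8.52% of all genes were called higher and 20.2% lower, with a median of -0.30. The higher ones included Atp5k (1.46), Uqcrq (1.37) and Cox7b (1.21). With WT GC replicate 3 as the sole WT GC library, 4 were higher and 4 lower, with a median of -0.05, where 15.5% of all genes were called higher and 8.19% lower. Ndufs1 and Ndufv1 were among the lower genes in this second fit (log2 -1.45 and -2.11), and Sdha had an adjusted p of 0.0507. Without p52ki GC replicate 5, 7 genes were lower and none higher, where 19.8% of all genes were called lower and 7.08% higher. Single-library fits assume that a lone GC library varies like the other groups. Among the assembly factors, Ndufaf7 measured 35.1, 147 and 25.7 CPM in WT GC cells and 0 and 21.8 CPM in p52ki GC cells, and Ndufaf1 measured 42.8, 2.85 and 32.5 CPM and 9.45 and 19.8 CPM. Ndufaf8 measured 23.1, 34.4 and 32.5 CPM and 44.8 and 57.9 CPM, with no value near 0.

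Transcript length moved with the changes in GC cells. Of the 90 tested genes, 56 have transcripts under 1000 bases. In WT, the median naive to GC change was 1.10 for these short genes and 0.63 for the 34 longer ones, against 0.32 and -0.18 for other protein-coding genes of the same classes. In p52ki it was 1.35 and 0.48, against 0.74 and -0.53. Across 89 protein-coding genes of the set, Spearman's rho of change with length was -0.50 in WT and -0.64 in p52ki, and -0.12 and -0.21 across 11366 other genes. These genes share the same libraries, so rho is a description. In both length classes the medians of the set lay above those of other genes, and the part of length in the result was not tested.

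By library, the summed CPM of short genes of the set divided by that of longer ones was 2.07 in WT GC replicate 3 and 2.54 and 1.83 in the p52ki GC libraries, 1.72 in WT activated replicate 1 and 0.997 to 1.36 in the other 13. Other short protein-coding genes took 19.3%, 20.4% and 21.8% of the TMM-scaled library total in those GC libraries. Their share was 20.4% in WT activated replicate 1 and 10.2% to 15.5% elsewhere. The longer genes of the set alone summed to 4430 to 4885 CPM in WT naive and 6887 to 8645 CPM in WT GC cells, and to 4329 to 5222 CPM in p52ki naive and 5601 and 7584 CPM in p52ki GC cells, without overlap in either genotype. Ndufs1 and Sdha have transcripts of 2625 and 2900 bases. The 2832 other protein-coding genes of 2000 to under 3000 bases had a median p52ki minus WT difference of -0.51 in GC cells, against -2.07 for Ndufs1 and -1.22 for Sdha. For Ndufv1 (1528 bases) the class of 1500 to under 2000 bases had a median of -0.21. Ndufs1, Sdha and Ndufv1 were picked as called lower in this comparison. That they lie below a class median follows from that choice and says nothing about length.

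**Figure D5:**
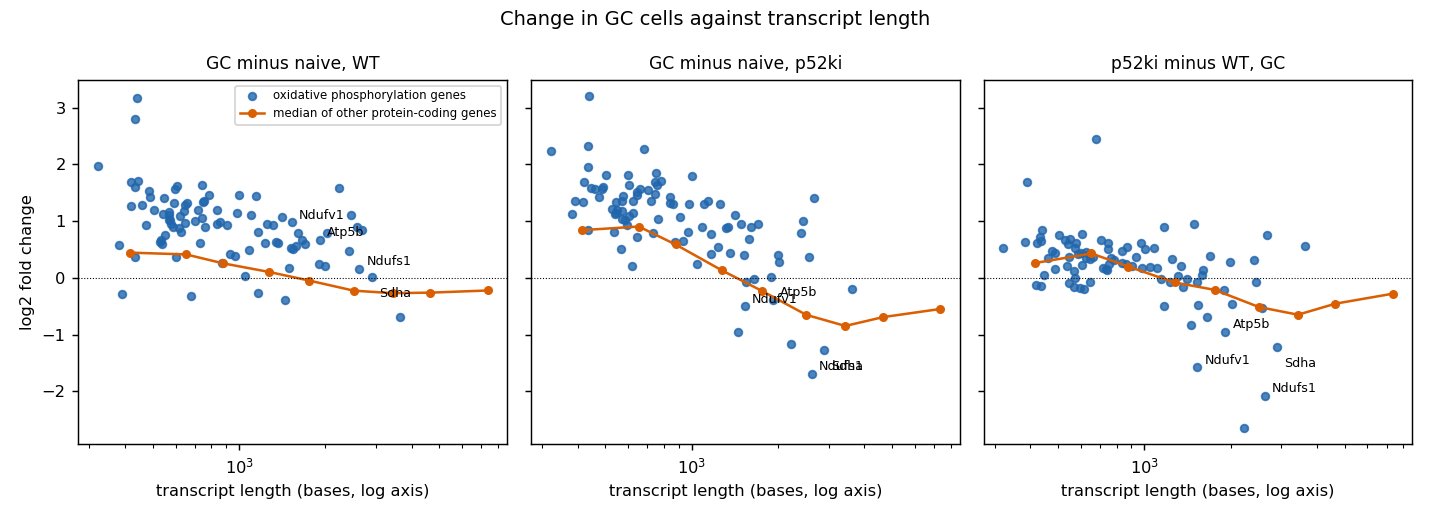
Log2 fold change in GC cells against transcript length (log axis) for the genes of the set (points) and the median of other protein-coding genes in length classes (line). Changes are smaller or negative at greater length in both. Ndufs1, Sdha and Ndufv1, picked as called lower in the p52ki minus WT panel, lie below the line there.

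Other genes of the pathway, from lists of functionally related genes, were counted in the same fits. None of the 13 subunits encoded by mitochondrial DNA was called in any of the 10 comparisons by edgeR. In WT GC cells all 13 changes were negative against naive cells (median -0.20), and in p52ki GC cells all 13 were positive (median 0.59), with 0 and 1 at an unadjusted p under 0.05. More were under that p in p52ki minus WT activated cells (7 of 13, median -0.62, 12 negative), in p52ki GC against activated cells (6 of 13, median 0.73) and in the difference of these changes between genotypes (10 of 13, median 1.12). These comparisons are named because more of the 13 were under that p. Of all genes, 0.013%, 25.6% and 5.95% were called in them after adjustment, so at least these shares were under that p. Of 42 tested assembly factors outside the name rule, 1 was higher in WT and 6 were higher and 4 lower in p52ki GC against naive cells. Of all genes, 8.45% were higher in WT, and 8.68% were higher and 20.4% lower in p52ki. Uqcc1, an assembly factor of complex III, measured 41.7, 15.3 and 55.1 CPM in WT GC cells and 0.242 and 0.164 CPM in p52ki GC cells (lower, adjusted p = 2.02e-05, edgeR).

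Of 21 electron carriers and ATP export genes, 5 rose and 1 fell in each genotype from naive to GC cells. Of all genes, 7.47% fell in WT and 20.4% in p52ki. Slc25a4, which exchanges ATP for ADP across the inner membrane, had log2 changes of 1.39 in WT and 1.45 in p52ki, and Etfa, an electron carrier for fatty acid oxidation, 1.10 and 0.81. Of 18 TCA cycle enzymes, 5 were lower and none higher in p52ki than in WT GC cells (12.2% and 3.75% of all genes), among them Ogdh (-2.19, adjusted p = 0.00272), Suclg2 (-1.13) and Fh1 (-1.29). Of 20 regulators of respiratory genes, Tfam, which packages and transcribes mitochondrial DNA, was the only call in that comparison (-1.57, adjusted p = 0.00561, edgeR). Of all genes, 16% were called there. From naive to GC cells, 8.45% of all genes rose in WT and 8.68% in p52ki. Mitochondrial ribosomal proteins rose in 20 of 77 genes in WT and 27 of 77 in p52ki. Genes named Rpl or Rps, mostly cytosolic ribosomal proteins, rose in 3 of 97 genes in WT and 49 of 97 in p52ki. Cell cycle genes rose in 24 of 24 and 19 of 24, and 8 of 24 were lower in p52ki than in WT GC cells.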

How the data were processed

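The authors deposited unnormalized gene counts. The submitters' processing notes name GRCm38 and the tools HISAT2 (2.1.0), SAMtools (1.8) and Subread (1.6.2, with featureCounts). RNA was amplified by SMART-Seq v2 from low input, per the labels' protocols, which name no molecular identifiers, so reads are not independent molecules. Neither the strand setting nor the annotation release used for counting is known here, and overlapping or near-identical genes may share reads. Identifiers (55536 of 55536) were matched to GENCODE mouse release 21 for coordinates and for length, the median over basic protein-coding transcripts. Libraries were grouped by the labelled genotype and cell stage.

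Genes were kept by filterByExpr (15352), normalized by TMM, then fitted in edgeR 4.0.16 (glmQLFit, robust, 1 coefficient per group over all 17 libraries; glmQLFTest) in R 4.3.3, with Benjamini-Hochberg adjustment. CPM were computed from library totals over the kept genes, multiplied by the TMM factors. The 10 contrasts were 3 of genotype, 6 of stage and 1 difference of stage changes. Alternatives were DESeq2 1.42.0, limma 3.58.1 voom with quality weights, RLE scaling, no filter, fewer samples and a replicate block. The fit was tested on simulated data. Members and lists were chosen with earlier results of these data known. The text names landmark subunits, isoform pairs, the most abundant gene of each complex, up to 10 genes called in each direction per contrast by smallest p (5 where fewer than 5 were called) and up to 3 genes per other list. Other genes named were chosen after their values were seen, as was the split at 1000 bases. The values of 1 member are included in sums and counts but not reported here. Rows with -ps (9) were left out by the rule. No columns of other samples were present.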

Additional observations from a re-analysis of the deposited data

Results flagged for a closer look

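The activated to GC change of Ndufs1 differed between the genotypes by a test of the difference itself, at -2.08 on the log2 scale (p52ki minus WT, adjusted p = 0.0163, edgeR). It was called in 15 of 18 alternative fits, with adjusted p-values up to 0.194. A signal was also present in 2 rows that the name rule leaves out. Ndufb1-ps had a mean of 207 CPM over the 17 libraries and is annotated by GENCODE as a bidirectional promoter lncRNA at chr12:101968090-101977068, while the RefSeq table lists that symbol as a synonym of the protein-coding gene Ndufb1. Atp5l2-ps, a processed pseudogene, had a mean of 12 CPM.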

How the results depend on the processing

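In naive and activated cells the genotype comparisons called 0 genes of the set in every alternative. Percentages in brackets are shares of all genes called in the same fit. For GC cells of p52ki against WT (3, with 16%), the count was 8 with DESeq2 (25.6%). It was 0 with limma voom (0.0977%), 0 with only the groups compared (0%) and 7 with detected genes as covariate (21.5%). Leaving out single WT GC libraries gave 2 to 18 (10.2% to 28.8%). WT activated against naive (0, with 0.319%) gave 2 with limma voom (6.87% higher, 3.67% lower). The same comparison in p52ki (0, with 0.117%) gave 1 with limma voom (5.3% higher, 2.7% lower). WT GC against activated (9, with 13.6%) gave 30 with limma voom (32.7%) and 0 with only the groups compared (4.32%). Without single libraries it gave 2 to 19 (8.55% to 17.2%). WT GC against naive (43, with 15.9%) gave 18 with only the groups compared (11.1%). Without single libraries it gave 11 to 53 (9.47% to 19.1%). In p52ki, GC against activated (37, with 25.6%) gave 1 with limma voom (1.21%), and GC against naive (55, with 29.1%) gave 3 (2.54%). The fall with limma voom was thus shared by all genes. Without single libraries these p52ki comparisons gave 14 to 41 and 31 to 56. The all-gene shares were 15.9% to 21% without single activated libraries and 19.6% to 25.3% without single naive libraries. The difference of activated to GC changes (1) gave 2 without a filter, 3 with DESeq2, 0 with limma voom, 0 with only the groups compared, 4 without WT GC replicates 1 and 4, and 1 to 5 without single libraries. For this difference, 5.95% of all genes were called in the main fit and 4.19% without a filter. The share was 15.2% with DESeq2, 0.0847% with limma voom and 0.832% with only the groups compared. The cause of these changes in count was not tested, and some fits held fewer libraries.

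Deviations from the group mean were correlated between libraries of a genotype. They sum to 0 within each group, so same-numbered and different-numbered correlations are not independent. With 2 p52ki GC libraries they mirror each other, as at 0.0216 and -0.0216 for p52ki naive replicate 2. Same-numbered naive and activated libraries had correlations of 0.0786 to 0.281, all positive, and different-numbered ones ran from -0.23 to 0.147. With GC libraries, same-numbered ones ran from -0.229 to 0.068 and different-numbered ones from -0.103 to 0.317. The labels do not state what the numbers share. Whether they pair libraries is unsettled, and the main fits left them unpaired. With the replicate number as a block, the count was 3 for WT GC against activated, where 8.29% of all genes were called. It was 27 for WT GC against naive, where 5.71% of all genes were called higher and 4.83% lower. The count was 32 and 47 for the same p52ki comparisons (15.8% and 19.7% of all genes). For the difference it was 0 (1.77% of all genes), and Ndufs1 kept -2.08 there but did not pass. No paired analysis was possible for p52ki against WT because the genotypes share only replicate number 3. Signs turned in 3 uncalled cases when 1 library was left out. Cox8a in naive cells ran from -0.044 (without p52ki naive replicate 3) to 0.43, and in activated cells Ndufb8 ran from -0.51 and Uqcrh from -0.54 to 0.14 and 0.11 (both without WT activated replicate 1). Of the other values for single genes, 767 kept direction and side of the threshold, 88 lost the call and 18 gained it. Under RLE scaling the all-gene median shifted by at most 0.0998 in size on the log2 scale, and every median of the set kept its sign. The largest shift was -0.0998, in WT GC against naive cells. There, 35 genes of the set were higher and 1 lower, where 7.87% of all genes were called higher and 8.95% lower. Depth of 4067281 to 10036347 counts and 2 p52ki GC libraries limit what could be detected.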
